A study of Mus musculus with 2 samples.

Results

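The nuclear-encoded subunits of the respiratory chain and of ATP synthase were examined by long-read RNA sequencing of mouse adrenal gland. A gene was taken as a member when its name in the deposited tables belonged to the subunit families of complex I (Nduf), complex II (Sdh), complex III (Uqcr and Cyc1), cytochrome c (Cycs), complex IV (Cox4 to Cox8) or ATP synthase (Atp5). The muscle and brown fat isoforms Cox7a1 and Cox8b and names ending in -ps were left out. These rules gave 86 gene identifiers with 85 names, of 18580 annotated genes with reads in either library. The second Atp5o identifier held 2 and 4 reads.

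The gland came from male B6CASTF1/J mice, the first-generation cross of C57BL/6J and CAST/EiJ, at an age of 10 days, with 1 untreated group of 2 biological replicates. Replicate 2 was made from 1 µg of RNA, and spike-in RNAs were added to both libraries. The labels give both libraries 1 donor and number the animal of replicate 2 in more than 1 way, so whether they stem from separate animals is unclear. Both alleles of the cross were counted together. With 1 group, the comparison possible was between the libraries. Its p-values set that difference against counting error alone and hold no spread between preparations, animals or conditions.

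The respiratory chain passes electrons from NADH (through complex I) and from succinate (through complex II) to ubiquinone, then through complex III and cytochrome c to complex IV, which reduces oxygen. Complexes I, III and IV move protons across the inner mitochondrial membrane, and ATP synthase uses their return to make ATP. In the adrenal cortex the mitochondria also hold the cytochrome P450 enzymes that begin and end steroid synthesis, which draw electrons from NADPH through their own carriers. A long read was counted as 1 whatever its length, so levels below are not divided by length. They are reads per 1000000 reads on annotated genes (CPM), which are shares of reads and not counts of molecules. How levels went with transcript length, which differed between the libraries, is given below.

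Replicate 1 held 927914 reads on annotated genes, of which 4.45% fell on members. For replicate 2 these values were 1303420 and 7.45%. Reads were found for 83 members in replicate 1 and for all 86 in replicate 2 and 79 members reached 10 CPM in both libraries. A level of 100 CPM was reached in both libraries by 71 members, and 12 of the 100 genes with the highest mean level were members. Where no read was found, the limit of detection (3 reads) corresponds to 3.23 CPM in replicate 1 and 2.30 in replicate 2, for counting error only. Fewer cells of a type and less RNA per cell cannot be told apart in these whole-gland libraries.

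The tissue label was checked on marker genes. The 5 cortex markers (Star, Cyp11a1, Nr5a1, Cyp21a1, Hsd3b1) summed to 25832 and 17422 CPM in replicates 1 and 2, and the 5 chromaffin markers to 11403 and 6053 CPM. Markers of other tissues were present too. Those of liver summed to 8569.8 and 25963 CPM (5 of 5 with reads), of brown fat to 6593 and 8498 CPM (5 of 5, Ucp1 among them), of red cells to 1104 and 3752 CPM (3 of 3) and of skeletal and heart muscle to 777 and 2167 CPM (6 of 8). Reads of the heart genes Myh6 and Tnnt2 and of the testis genes Prm1, Prm2 and Tnp1 were 0 in both libraries. Cortex and chromaffin sums were thus lower, and liver, red cell and muscle sums higher, in replicate 2. Not every marker followed its sum: Cyp11a1 had 7423 and 7442 CPM, Pnmt 639 and 707, and the red cell gene Alas2 98.1 and 56.0. The lists also differ in median transcript length, at 2120 bases for cortex, 1883 for chromaffin, 1186 for liver, 1446 for muscle and 699 for red cells. The ratio between the libraries followed length, as described below. The part of these tissues in the member values below was not tested.

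The complexes differed in how far their summed levels varied between the libraries. The 4 genes of complex II summed to 3783 CPM in replicate 1 (95% Poisson interval 3659 to 3909.9) and 4013 CPM in replicate 2 (3905 to 4123). The 19 genes of ATP synthase summed to 14384 and 18875 CPM, and the 9 of complex III to 9350.0 and 12864 CPM. Complex I, with 38 genes, stood further apart, at 11511 and 21789 CPM. The 15 genes of complex IV summed to 4610.3 and 15966 CPM, a ratio of 3.46. On the CPM scale the value of replicate 2 was the larger for each complex, by the least for complex II, whose intervals overlap narrowly, and by the most for complex IV. The median transcript was 2066 bases long for complex II and 618 for complex IV, and the ratio between the libraries followed length, as described below.

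**Figure D1:**
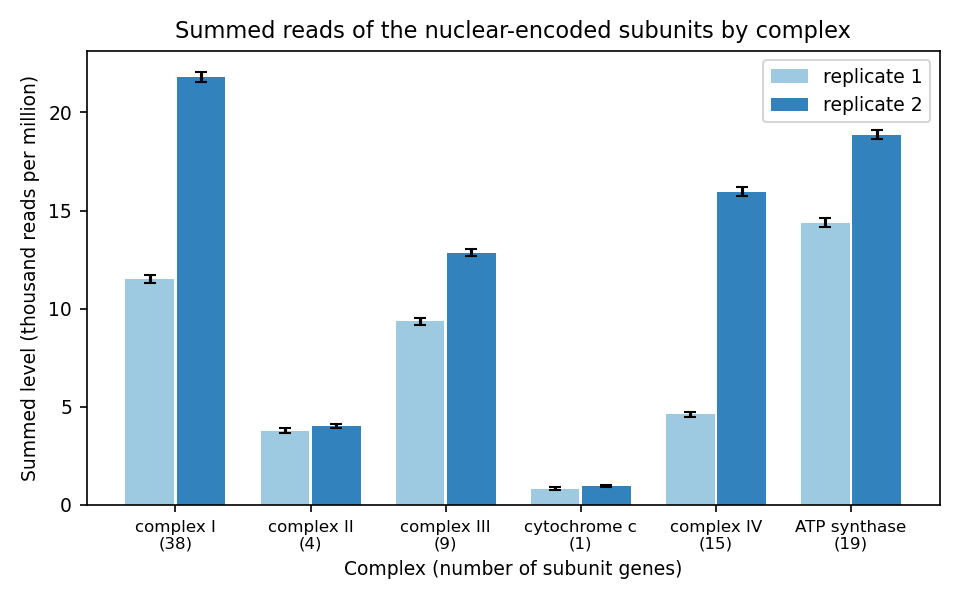
Summed level of the nuclear-encoded subunit genes of each complex (reads per 1000000 reads, drawn in units of 1000) for replicate 1 (light) and replicate 2 (dark), with 95% Poisson intervals that cover counting error only; the number of genes is in brackets. On the CPM scale complex II is nearly level between the libraries, and complex IV shows the largest ratio, 3.46. The median transcript is 2066 bases long for complex II and 618 for complex IV.

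Each gene's reads were set against all other gene reads of its library by Fisher's exact test (two-sided). P-values were adjusted by Benjamini-Hochberg over the 11650 genes whose reads in the libraries summed to at least 10. Of the 82 members tested, 62 were higher in replicate 2, 7 were lower and 13 were not called at an adjusted p of 0.05. Over all genes tested, 13.0% were higher and 22.2% were lower. The median log2 ratio of replicate 2 over replicate 1 was 1.56 over the members and -0.25 over all genes. When TMM factors set the scale, the all-gene median moved from -0.25 to 0.01, 67 members were higher and 1 was lower, against 17.0% and 11.4% of all genes. The 7 members called lower were Atp5a1, Ndufs1, Uqcrfs1, Atp5f1, Uqcrc1, Ndufv1 and Ndufa10, with log2 ratios between -0.37 and -0.19, and only Atp5a1 remained called under TMM or DESeq2 scaling, while Ndufv1 and Ndufa10 changed sign.

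**Figure D2:**
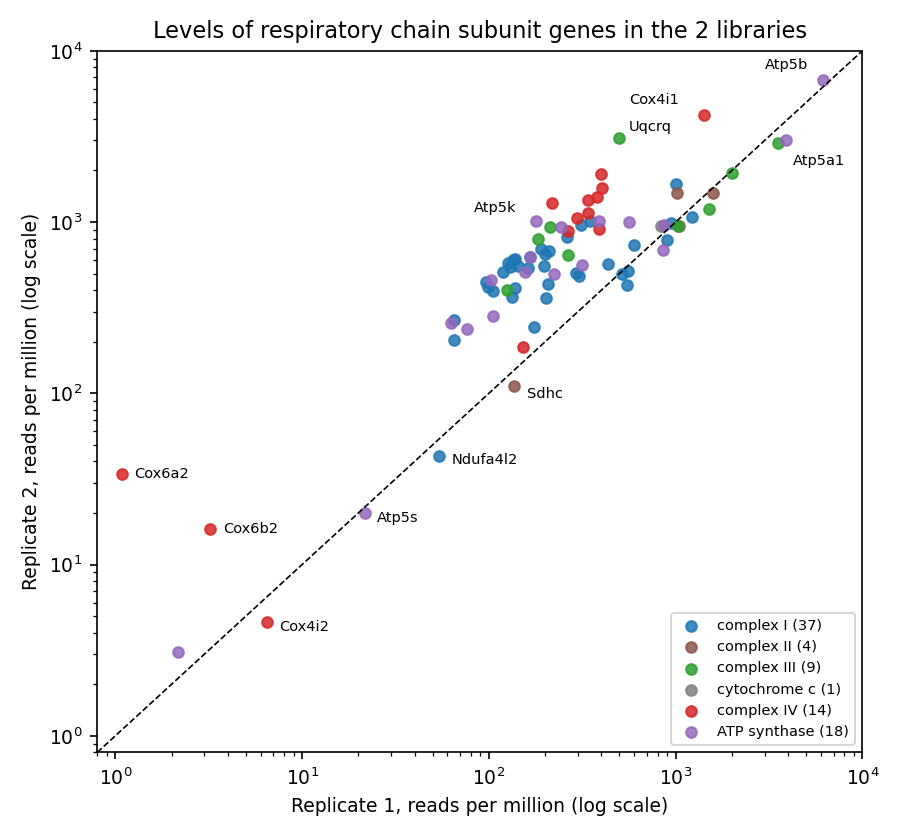
Level of each member in replicate 1 against replicate 2, in CPM on log axes, coloured by complex, with the line of equal levels dashed; 3 members with reads in replicate 2 only are not drawn. Most members lie above the line, and the most abundant long transcripts (Atp5b, Atp5a1) lie close to it.

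Complex I, NADH:ubiquinone oxidoreductase, has a core that carries flavin and iron-sulfur clusters and a large set of accessory subunits around it. The 7 nuclear-encoded core genes summed to 4479 and 5240.1 CPM. Of these, 3 were higher in replicate 2, 2 were lower and 2 were not called, against 13.0% higher and 22.2% lower of all genes tested. Ndufv1, which binds NADH and the flavin, stood at 1225 and 1077 CPM (1137 and 1404 reads, adjusted p = 0.00553 by Fisher's exact test). Ndufs1, the largest iron-sulfur subunit, had 551 and 427 CPM (adjusted p = 2.68e-04). Ndufv2 had 518 and 496 CPM and was not called, and Ndufs3 had 600.3 and 732 CPM (adjusted p = 0.00104).

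These 4 core genes had log2 ratios between -0.37 and 0.29, and Ndufs7 and Ndufs8 lay above them. With TMM factors Ndufs1 was no longer called (-0.10). Ndufs7, which carries the last cluster before ubiquinone, had 348 CPM in replicate 1 and 1019.6 CPM in replicate 2. Ndufs8, a further cluster subunit, had 292 and 506 CPM. Their transcripts are the shortest of the core, at 758 and 780 bases, and both were higher in replicate 2 (adjusted p = 1.39e-78 and 1.12e-13).

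Accessory genes of complex I summed to 7032 and 16549 CPM. Of 30 tested, 27 were higher in replicate 2, 1 (Ndufa10) was lower and 2 were not called, against 13.0% and 22.2% of all genes. Their median log2 ratio was 1.67, against 0.06 for the core genes. The median transcript was 718 bases long for accessory and 1623 for core genes. After the ratio expected from transcript length was subtracted, the medians were 0.59 and 0.14. Ndufa4 was the most abundant by mean level, at 1008 and 1676 CPM. Its protein is now assigned to complex IV, and the gene keeps its older name here. Ndufa10 had 899 and 786 CPM. Ndufa3, a small membrane subunit, had the largest ratio of the complex, with 97.0 CPM in replicate 1 (90 reads) and 448 CPM in replicate 2 (584 reads), a ratio of 4.62. Ndufa4l2, a hypoxia-induced relative of Ndufa4, had 53.9 and 43.0 CPM, far below Ndufa4 in both libraries, and was not called between them (adjusted p = 0.437).

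Complex II, succinate dehydrogenase, has no mitochondrially encoded subunit. Sdha, the flavoprotein, had 1586 CPM in replicate 1 and 1475 CPM in replicate 2, and Sdhd, a membrane anchor, had 1045 and 953 CPM. Neither was called by Fisher's exact test (adjusted p = 0.0902 and 0.0794), though Sdha was called higher with TMM factors (0.16). Sdhb, the iron-sulfur subunit, had 1014 and 1473 CPM and was higher in replicate 2 (adjusted p = 4.40e-20). Sdhc, the other anchor, was the lowest of the complex, at 137 and 111 CPM (127 and 145 reads), and was not called. When reads of annotated transcripts alone were counted, Sdhc was called lower in replicate 2, with a log2 ratio of -0.90 (adjusted p = 4.61e-04), and without single-exon fragments with -0.74.

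Complex III moves electrons from ubiquinol to cytochrome c through a cytochrome b, a cytochrome c1 and the Rieske iron-sulfur protein, beside core and small subunits. The core proteins Uqcrc1 and Uqcrc2 had 3530.5 and 2902 CPM, and 1032 and 944 CPM. Cyc1, the cytochrome c1 gene, had 1995 and 1934 CPM and was not called (adjusted p = 0.480), but was called higher in replicate 2 with TMM factors (log2 ratio 0.22). Uqcrfs1, the Rieske protein, had 1509.8 and 1193 CPM (adjusted p = 2.81e-09). On the CPM scale none of these 4 genes, with transcripts of 1363 to 1896 bases, was called higher in replicate 2.

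The small subunits of complex III were higher in replicate 2 on the CPM scale. Uqcrq, a ubiquinone-binding small subunit, had 496 CPM in replicate 1 (460 reads) and 3114 CPM in replicate 2 (4059 reads). Its ratio of 6.28 was the largest of the members with a mean of 20 CPM or more when all reads were counted. Without single-exon fragments its log2 ratio went from 2.65 to 1.99, below Atp5k (2.61) and Cox8a (2.36). Uqcr10 had 212 and 937 CPM, Uqcr11 had 184 and 792 CPM, Uqcrb had 265 and 645 CPM, and Uqcrh, the hinge protein, had 125 and 402 CPM. All 5 were called higher in replicate 2. After the ratio expected from transcript length was subtracted, Uqcrq (2.90) and Uqcr11 (0.30) were still called higher, Uqcr10 (0.27) and Uqcrh (0.11) were not called, and Uqcrb (-0.30) was called lower. By that measure Uqcrc2 (0.24) and Cyc1 (0.20) were called higher and Uqcrfs1 (-0.30) lower, so core and small subunits did not separate. Cycs, the mobile carrier cytochrome c, had 835 and 951 CPM (adjusted p = 0.0159).

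Complex IV, cytochrome c oxidase, takes its catalytic subunits from the mitochondrial genome, and its nuclear subunits are small and several exist as tissue isoforms. On the CPM scale the 10 most abundant were all called higher in replicate 2, against 13.0% of all genes tested. Cox4i1, the common form of subunit 4, had 1421 CPM in replicate 1 (1319 reads) and 4243 CPM in replicate 2 (5531 reads). Cox8a had 397 and 1907 CPM, Cox6b1 had 403 and 1576 CPM, and Cox6c had 380.4 and 1394 CPM. Cox6a1 had 341 and 1339.6 CPM, Cox7b had 217 and 1284 CPM, and Cox7a2 had 341 and 1128 CPM. Cox5b, Cox5a and Cox7c had 296, 387 and 265 CPM in replicate 1 and 1052, 915 and 885 CPM in replicate 2. After the ratio expected from transcript length was subtracted, Cox6c (0.19), Cox7c (0.17) and Cox5a (0.07) were not called. The others of these 10 were still called higher, with the log2 ratio of Cox4i1 going from 1.58 to 0.14.

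The alternative subunit isoforms of complex IV were far lower than the common forms. Cox4i2, the lung form of subunit 4, had 6 reads in each library (6.47 and 4.60 CPM). Cox6a2, the heart and muscle form, had 1 read in replicate 1 and 44 in replicate 2, and was called higher (adjusted p = 2.05e-08). It is also on the list of muscle markers. Of the other 7, Acta1, Ckm, Tnnt3 and Myh4 were called higher in replicate 2, Mb was not called and Myh6 and Tnnt2 had no reads, and the part of muscle RNA in the Cox6a2 value was not tested. Cox6b2, the testis form, had 3 and 21 reads (adjusted p = 0.0120), beside 0 reads of the testis markers. Cox7a2l, which joins complexes III and IV in supercomplexes, had 152 and 186 CPM and was not called, except with TMM or DESeq2 scaling (log2 ratios 0.56 and 0.55). No reads were listed for Cox7b2 and Cox8c.

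ATP synthase has a catalytic head of alpha and beta subunits in several copies, a central stalk, a side stalk and a membrane ring of c subunits. Atp5b, the catalytic beta subunit, was the most abundant member, at 6139.60 CPM in replicate 1 and 6778 CPM in replicate 2 and the fifth of all genes by mean level. Atp5a1, the alpha subunit, had 3916 and 3032 CPM. The stalk genes were lower. Atp5c1 (gamma) had 869 and 959.8 CPM and was not called (adjusted p = 0.0741), while with TMM factors it was called higher (0.41). Atp5d (delta) had 561 and 995 CPM, and Atp5e (epsilon), with a transcript of 421 bases, had 96 and 595 reads. Atp5f1 (subunit b of the side stalk) had 856 and 687 CPM and Atp5o, at the top of that stalk, had 388 and 1010.4 CPM. Atp5k, the small subunit e, had the largest ratio of the complex, with 166 and 1329 reads and 5.70-fold more CPM in replicate 2.

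The c ring is built from 1 protein made by 3 genes, Atp5g1, Atp5g2 and Atp5g3, which differ in the import sequence that is cut off. Atp5g3 was the most abundant in both libraries, with 293 and 735 reads. Atp5g1 had 76.5 and 237 CPM and Atp5g2 had 62.5 and 257 CPM, and the Poisson intervals of this pair overlapped in both libraries. A single-exon model of 151 bases held 29.3% and 66.3% of the Atp5g2 reads, and annotated reads were 64 and 285 for Atp5g1 and 37 and 100 for Atp5g2. All 3 genes were called higher in replicate 2, with the log2 ratio of Atp5g2 going from 2.03 to 1.06 without single-exon fragments. The last 120 coding bases of each, read from the GENCODE M21 transcripts (mm10), show how genes of 1 protein differ, with capitals where the 3 are not all equal:
Atp5g1, chr11:96073107-96073530, minus strand: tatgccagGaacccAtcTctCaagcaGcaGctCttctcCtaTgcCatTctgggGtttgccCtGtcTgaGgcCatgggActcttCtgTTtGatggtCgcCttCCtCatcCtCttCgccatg
Atp5g2, chr15:102663017-102665061, minus strand: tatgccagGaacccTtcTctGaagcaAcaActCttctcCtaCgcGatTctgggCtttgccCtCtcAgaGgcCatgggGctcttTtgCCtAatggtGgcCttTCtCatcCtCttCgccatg
Atp5g3, chr2:73908596-73909191, minus strand: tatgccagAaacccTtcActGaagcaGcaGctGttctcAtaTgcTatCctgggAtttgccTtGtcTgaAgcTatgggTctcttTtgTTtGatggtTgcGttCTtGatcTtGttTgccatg
Each stretch spans an intron. Over the last 75 codons, 57 positions differed among the 3 genes, 52 of them at the third base of a codon, and 0 codons called for another residue. Pairwise identity was 84.9% between Atp5g1 and Atp5g2, 80% between Atp5g1 and Atp5g3 and 78.7% between Atp5g2 and Atp5g3.

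A level of 10 CPM in both libraries was missed by 7 members: the second Atp5o identifier, Cox4i2, Cox6a2 and Cox6b2, annotated as protein-coding, and 3 copies. Atp5l-ps1, Cox6c2 and Ndufs6b had 0 reads in replicate 1 and 2, 5 and 1 reads in replicate 2. These are annotated as processed pseudogenes, and by name as copies of Atp5l, Cox6c and Ndufs6, so their few reads are uncertain. Atp5s, coupling factor B, had 20 and 26 reads (21.6 and 19.9 CPM).

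The ratio between the libraries followed transcript length among the members and among all genes. Length here is the annotated length of the transcript with most reads in a gene. Of the 23 members with a transcript of up to 600 bases, 23 were higher in replicate 2, against 59.9% of 352 other genes of that length. From there to 800 bases it was 17 of 18 against 54.9%, and from 800 to 1000 bases 9 of 10 against 39.3%. Between 1000 and 1500 bases it was 6 of 12 against 18.1%, and between 1500 and 2000 bases 4 of 10 against 10.4%. Above 2000 bases 2 of 8 were higher and 4 lower, against 6.02% and 27.2% of 7124 other genes. Spearman's rho between the log2 ratio and length was -0.66 over 81 members and -0.30 over 11031 genes, across genes of the same pair of libraries.

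Median ratios followed the same order. Members of up to 600 bases had a median log2 ratio of 2.04 against 1.66 for other genes, and those over 2000 bases had -0.25 against -0.43. In each of the 6 length classes the members' median was above that of the other genes. The level itself went with length in replicate 1 (Spearman's rho 0.49 over 81 members) and less in replicate 2 (0.13).

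**Figure D3:**
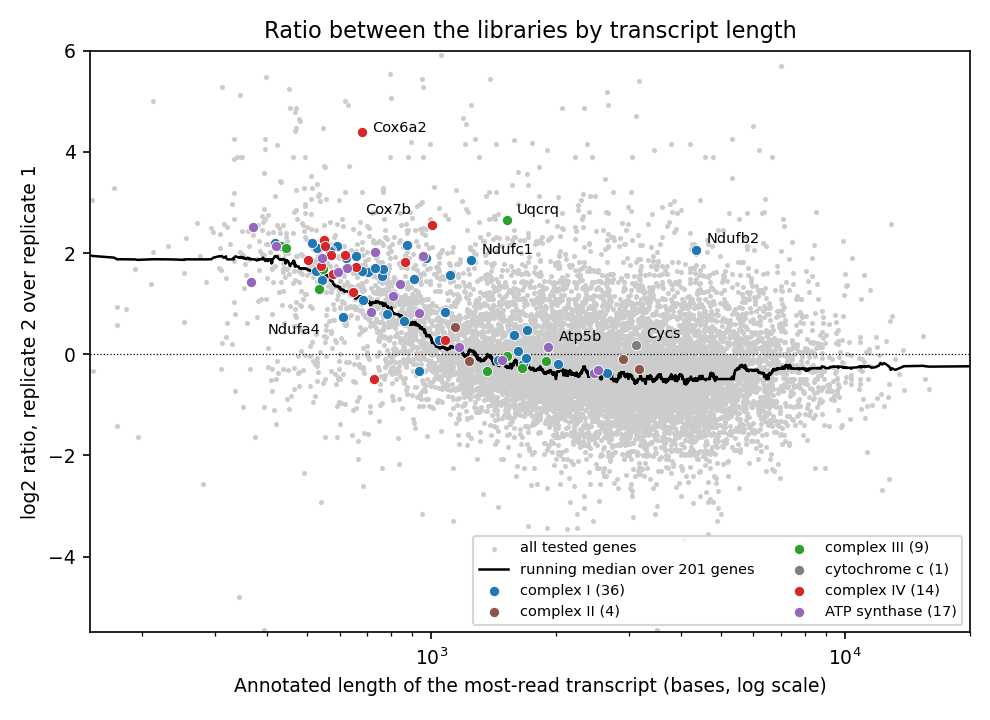
The log2 ratio of replicate 2 over replicate 1 against the annotated length of the most-read transcript (log axis), for all tested genes (grey), the running median of genes of like length (black line) and the members by complex; 27 of 11031 genes fall outside the axes. The line falls from near 2 for the shortest transcripts to below 0 for the longest, most members lie at or above it, and Uqcrq, Cox7b, Cox6a2 and Ndufb2 lie far above it.

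After the running median of all genes of like length was taken from each ratio, the members' median log2 ratio was 0.30. With an exact binomial test of the ratio expected from length, adjusted over all genes, 45 of 81 members were higher in replicate 2 and 5 were lower, against 13.1% and 9.94% of all genes. By complex, 8 of 14 genes of complex IV, 21 of 36 of complex I, 9 of 17 of ATP synthase, 4 of 9 of complex III and 2 of 4 of complex II were higher, as was Cycs. The 5 lower were Ndufa4l2, Ndufa4, Atp5mpl, Uqcrb and Uqcrfs1, with values from -0.90 to -0.30. Sdha, not called on its measured ratio, was called higher by this measure (0.27, adjusted p = 8.57e-07).

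Some of the largest length-corrected values belong to genes whose annotated length is not that of their reads. Uqcrq (2.90) is entered with 1521 annotated bases, while its most-read model in replicate 2 spans 198 bases. Ndufb2 (2.56) is entered with an isoform of 4371 bases, beside a second of 455 bases. For Cox7b (2.28), 655 of its 1673 reads in replicate 2 lie on a model of 213 bases, shorter than the annotated transcript. For Atp5f1 the length of 2527 bases comes from a single read.

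For isoform use, the most-read isoform's share of annotated reads was compared where each library held at least 20 of them. Of 62 members tested, 4 differed between the libraries (Ndufv3, Atp5d, Cox4i1 and Ndufs8), against 2.17% of all 3040 genes tested. In all 4 the shorter isoform took the larger share in replicate 2. A second isoform held at least 20% of annotated reads in both libraries in 6 members (Atp5c1, Atp5g1, Atp5g3, Cox4i1, Ndufb2 and Ndufs1), as it did in 494 of the 3040 genes.

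**Figure D4:**
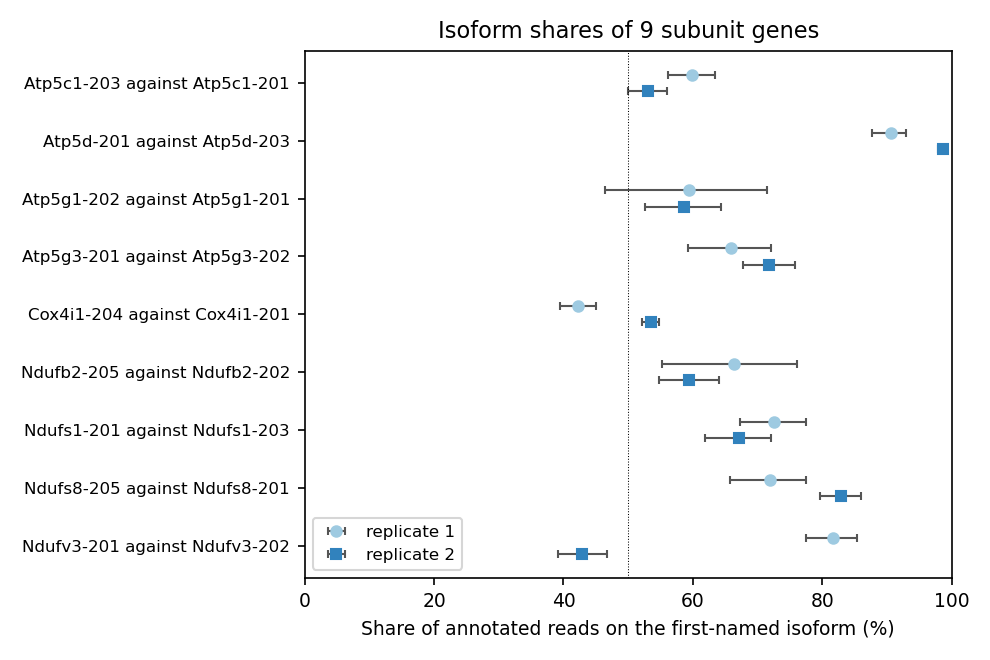
Share of annotated reads on the most-read isoform (first named) for 9 members, in replicate 1 (circles) and replicate 2 (squares), with 95% Clopper-Pearson intervals that cover counting error only. The intervals of the libraries are far apart for Ndufv3, apart for Cox4i1, Atp5d and Ndufs8, and apart by little for Atp5c1, whose difference did not pass the adjusted test.

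Ndufv3, a complex I subunit that lies beside the NADH-binding proteins, showed the largest shift. Its gene is at chr17:31520115-31531331 (mm10, plus strand). The long isoform contains exon 3, at chr17:31527310-31528401, whose 1092 bases are 364 whole codons and which the short isoform leaves out. The coding sequence is thus 1404 or 312 bases without the stop codon. Around the junction, with the bases after exon 2 in capitals, the isoforms read:
Ndufv3 long isoform, exon 2 and exon 3: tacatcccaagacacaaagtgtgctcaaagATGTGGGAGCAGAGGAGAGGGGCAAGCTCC
Ndufv3 short isoform, exon 2 and the last exon: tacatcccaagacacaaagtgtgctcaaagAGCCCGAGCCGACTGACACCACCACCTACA
In replicate 1, 311 reads carried exon 3 and 70 skipped it, a share of 81.6% for the long isoform (95% Clopper-Pearson interval 77.4 to 85.4). In replicate 2, 296 reads carried it and 393 skipped it, a share of 42.9% (39.2 to 46.7). The long isoform thus took most annotated reads in replicate 1 and the short one in replicate 2, and the shares differed by Fisher's exact test (adjusted p = 1.87e-33). Their transcripts are 1582 and 493 bases long, and between genes the ratio of the libraries followed length, as described above. The part of length in this shift was not tested.

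Atp5c1, at chr2:10056016-10080510 (minus strand), codes for the gamma subunit that turns inside the head of ATP synthase. Its isoforms differ by exon 9, a 37-base exon at chr2:10056770-10056806, whose inclusion adds 1 codon before the stop. The ends of the coding sequences are shown with the bases after exon 8 in capitals:
Atp5c1 with exon 9: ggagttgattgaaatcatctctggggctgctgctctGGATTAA
Atp5c1 without it: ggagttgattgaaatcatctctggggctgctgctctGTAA
Coding lengths were 894 and 891 bases without the stop codon. Skipping of this exon is known from heart and skeletal muscle, and the form with the exon from other tissues. The exon was included in 450 of 752 annotated reads in replicate 1, 59.8% (56.2 to 63.4), and in 591 of 1115 in replicate 2, 53.0% (50 to 56.0). The mean share was 56.4% ± 4.83 (SD, n = 2), and the difference was not called (adjusted p = 0.114 by Fisher's exact test). Muscle markers summed to 777 and 2167 CPM in these libraries, and their part in the share of the form without the exon was not tested.

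Cox4i1, at chr8:120668222-120674207 (plus strand), had its reads on a protein-coding isoform of 5 exons and on one of 3 exons that the annotation lists as a retained intron. The latter starts in the intron before exon 3, with 135 intron bases, and its introns are also those at the end of the coding isoform. The exon 3 start is in capitals:
Cox4i1 retained intron and exon 3: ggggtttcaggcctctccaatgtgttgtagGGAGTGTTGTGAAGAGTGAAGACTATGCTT
Cox4i1 coding isoform, exon 2 and exon 3: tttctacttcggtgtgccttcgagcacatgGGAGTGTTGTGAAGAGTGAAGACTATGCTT
In replicate 1, 522 of 1238 annotated reads were assigned to the retained intron, 42.2% (39.4 to 45.0), and 695 to the coding isoform. In replicate 2, 2836 of 5302 were assigned to it, 53.5% (52.1 to 54.8), and 2380 to the coding isoform. The mean share was 47.8% ± 8.01 (SD, n = 2), and the libraries differed (adjusted p = 2.63e-10 by Fisher's exact test). A coding read that begins in exon 3 has the same introns as the retained-intron isoform, so the deposited tables cannot tell them apart. When such nested transcripts were left out, a choice made after seeing the data, 46 members could be tested and 2 (Ndufs8 and Ndufv3) were called. That choice removes the coding isoform of Cox4i1 and the second isoform of Atp5d, so the differences in these genes were not retested.

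Atp5d had the same nested structure. Its 4-exon isoform took 90.6% of annotated reads in replicate 1 and 98.7% in replicate 2 (adjusted p = 4.21e-11), and its introns lie within those of the second isoform. For Ndufs8, the isoform of 780 bases took 71.9% (65.8 to 77.5) and 82.9% (79.6 to 85.9), and that of 983 bases took 24.8% and 14.7% (adjusted p = 0.0325). Both Ndufs8 isoforms have the same coding bases. The same holds for the isoform pairs of Atp5g1, Atp5g3, Ndufb2 and Ndufs1, whose shares were not called. The most-read isoform took 59.4% and 58.6% in Atp5g1, 65.9% and 71.8% in Atp5g3, 66.3% and 59.4% in Ndufb2, and 72.6% and 67.2% in Ndufs1.

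How much of a gene's reads matched an annotated transcript along all its introns differed between members. Over all members the share was 88.7% in replicate 1 and 82.9% in replicate 2, against 79.8% and 73.9% over all genes. Of 79 members tested, 31 had a lower share in replicate 2, 3 a higher one (Ndufa4, Ndufc1 and Cox4i1) and 45 were not called, against 19.7% lower and 0.568% higher of 6342 genes. Counting incomplete matches as matching gave 97.1% ± 0.150 (SD, n = 2) for the members, so most other reads followed part of an annotated transcript. Fragments of a single exon were 1.57% and 7.65% of member reads, and 3.62% and 10.1% of all gene reads.

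**Figure D5:**
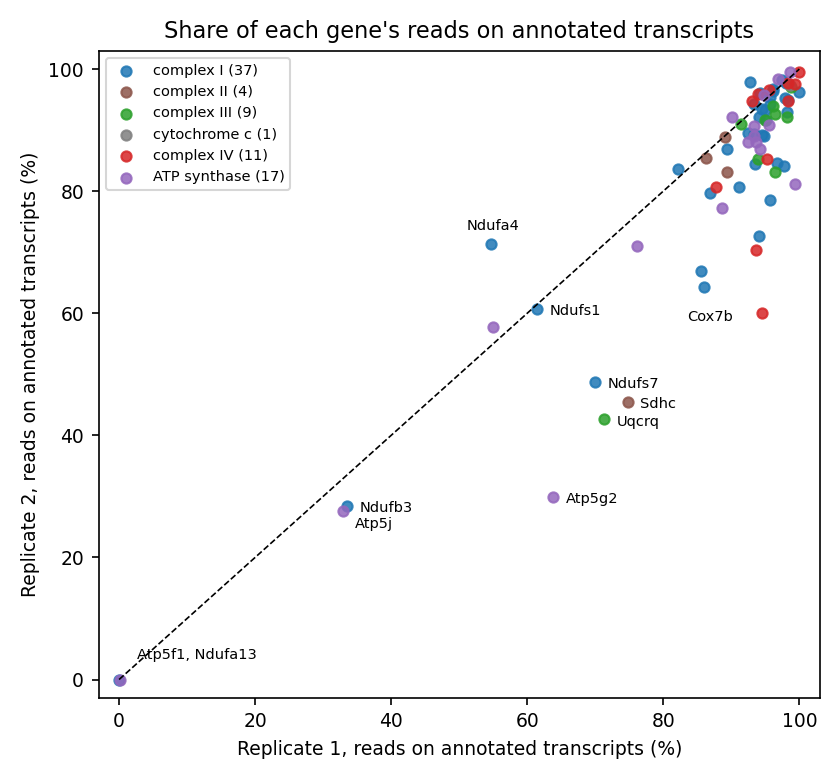
Share of each member's reads that match an annotated transcript, replicate 1 against replicate 2, for the 79 members with 20 or more reads in each library, coloured by complex; the dashed line marks equal shares. Most members lie above 80% in both libraries, and Atp5f1 and Ndufa13 lie at or near 0.

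Some abundant members had nearly no annotated reads. Atp5f1 had 1 annotated read of 794 in replicate 1 and 0 of 896 in replicate 2, and 742 and 829 reads (93.5% and 92.5%) lay on a model of 7 exons, chr3:105942698-105959246, that matches the 3′ part of an annotated chain of introns. Ndufa13, a complex I subunit also known as Grim19, had 0 annotated reads. Of its reads, 141 and 679 (94% and 96.7%) lay on a model of 4 exons at chr8:69894180-69901732. In both genes the same model led in both libraries. The next lowest shares were those of Atp5j (32.9% and 27.6%), Ndufb3 (33.5% and 28.4%) and Atp5g2 (63.8% and 29.9%).

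Single-exon models held 10% or more of the reads (and at least 20) in either library in 17 members. All 18 such models lay in the last exon of the most-read transcript, 14 of them with the annotated 3′ end within 20 bases, and 17 had the larger share in replicate 2. The deposited spans of 3 of them (1, 17 and 46 bases in Sdhd, Cox7a2l and Cox7a2) are too short to be read lengths. The largest was the 198-base model of Uqcrq, with 125 reads (27.2%) in replicate 1 and 2318 reads (57.1%) in replicate 2. Its end lies 1031 bases before the annotated end of the gene's most-read transcript. Ndufb3 had 129 and 622 reads on a 316-base model (66.5% and 70.8%), and Cox7b had 0 and 655 reads on one of 213 bases. Without single-exon fragments 63 members were higher and 7 lower. Models of 2 exons that match the 3′ part of an annotated chain held 70 and 606 reads in Ndufs7, 420 and 1516 in Atp5b and 403 and 599 in Ndufa4, fewer than the annotated reads of each gene.

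Chains that newly combine annotated splice sites were 1.06% and 0.584% of member reads, and chains with a new site 1.36% and 1.00%. Of 859 such chains, 217 occurred in both libraries and 23 had 5 or more reads in each, in 14 members. In Ndufs1, 2 chains of 20 exons had 84 and 110 reads and 46 and 63 reads, both made of annotated introns. The second of them differs from an annotated isoform by an added exon of 104 bases at chr1:63172154-63172257. In Sdhb, 73 and 107 reads used an acceptor shifted by 6 bases.

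Promoters of members were searched for letters bound by factors known to act on respiratory genes. RefSeq promoters (GRCm38.p6, 250 bases before to 50 after the start) were matched for 66 of 85 member names. The palindrome of NRF1, CGCATGCG with a G before and a C after, was found in 5 of 66 (7.58%), against 1.06% of 26959 other gene symbols and 2.49% of 6188 other symbols with 10 CPM or more in both libraries. With any base in the middle (CGCANGCG with the same outer letters), a search that includes the first, it was found in 17 members (25.8%), against 5.14% and 12.8%. CCGGAAG, bound by ETS factors such as GABP, was found in 16 (24.2%), against 9.89% and 22.6%. AAGATGG, the short YY1 motif, was found in 11 (16.7%), against 7.26% and 9.24%, and the longer YY1 motif that contains it in 4 (6.06%), against 0.742% and 2.20%. Both strands were searched, and a match describes letters and not binding.

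The 4 matches of the NRF1 palindrome that lie before the start are shown with the motif in capitals, since their genes belong to different complexes:
Atp5g2, chr15:102671065-102671104, minus strand: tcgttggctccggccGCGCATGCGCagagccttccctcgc
Atp5k, chr5:108434425-108434464, minus strand: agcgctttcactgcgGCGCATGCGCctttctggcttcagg
Cox6a1, chr5:115349096-115349135, minus strand: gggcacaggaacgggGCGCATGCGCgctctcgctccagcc
Ndufa11, chr17:56717687-56717726, plus strand: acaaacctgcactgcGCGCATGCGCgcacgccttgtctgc
The motif begins 42, 50, 162 and 60 bases before the start of Atp5g2, Atp5k, Cox6a1 and Ndufa11. The fifth match, in Uqcrc1, lies nearer to the start than these, or after it, and is not shown. In the same order, with Uqcrc1 last, the levels were 62.5, 179, 341, 133 and 3530.5 CPM in replicate 1. In replicate 2 they were 257, 1019.6, 1339.6, 367 and 2902 CPM. The median over all members was 214 and 615 CPM, so the match occurred in members below and above it in each library.

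Genes that assemble the complexes are read against the shares over all genes, 13.0% higher and 22.2% lower, and their difference from the subunits was not tested. Of 18 complex I assembly genes tested, 3 were higher in replicate 2 (Ndufaf3, Ndufaf8 and Dmac1) and 2 lower (Ndufaf1 and Foxred1). Their median log2 ratio was -0.13, against -0.25 over all genes. For complex IV, 6 of 22 were higher and 4 lower, with a median of 0.34. Cox17, the copper chaperone, had 111 and 624 reads, and Cox10 and Cox15, which make heme A, had 85 and 43 and 177 and 109 reads. Of the complex III factors 2 of 6 were higher and 1 lower, and of the complex II factors 1 of 4 was higher. Of the ATP synthase factors 1 of 4, the inhibitor Atpif1 (74 and 312 reads), was higher and 1, Atpaf2, lower. The median transcript of these lists was 1345 to 2736 bases long, against 760.5 bases for the members.

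Regulators of respiratory genes were tested in 14 of 16 cases, and 2 were higher and 3 lower in replicate 2, near the shares over all genes (13.0% and 22.2%). Nrf1, whose motif is described above, had 49 and 28 reads and was lower (adjusted p = 6.63e-04). Esrra, a nuclear receptor that activates respiratory genes, had 38 and 291 reads and was higher (adjusted p = 4.77e-31), with an annotated transcript of 2242 bases. Slirp, which stabilises mitochondrial RNA with Lrpprc, was higher, while Lrpprc and Polrmt, the mitochondrial RNA polymerase, were lower on this scale. Ppargc1a, Gabpa, Yy1 and Tfam were not called.

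Subunit genes that the naming rule left out were called higher in replicate 2, 4 of 4, against 13.0% of all genes tested. Their median transcript was 627 bases long, from 360 for Cox8b to 1416 for Ndufab1. The ratio between the libraries followed length, as described above, and the part of length in these calls was not tested. Ndufab1 had 315 and 863 reads and Ndufb1-ps had 72 and 461. Cox7a1 had 222 and 1211 reads and Cox8b had 345 and 2629. The last 2 are also on the list of brown fat markers and enter its sum. Of the other 3, Ucp1 (4130 and 3815 reads) and Elovl3 (48 and 26 reads) were lower in replicate 2, and Cidea (1373 and 3395 reads) was higher. The 11 mitochondrially encoded subunits with reads summed to 945 and 1183 CPM, led by mt-Co1 with 554 and 633 reads. That is below Cox4i1 alone in each library, and how fully these libraries recover mitochondrially encoded RNA was not tested.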

How the data were processed

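Long-read RNA sequencing was done on adrenal gland of male mice in 2 libraries. Per the file headers, the values deposited by the authors are counts of long reads for each transcript model, not normalized, with the exons and length of each model in bases as other columns made by the authors, on mm10 with GENCODE M21; identifiers are those of TALON, and the aligner is not given in the sources used here. Reads of all models of a gene were summed, without spike-ins. Library depths stand in the report. Fisher's exact tests and exact binomial tests used scipy 1.17.1, with 0.5 reads added before log2, and were tested on simulated data. Scaling alternatives used edgeR 4.0.16 (TMM 1.1 and 0.913) and DESeq2 1.42.0 (size factors 0.922 and 1.08). The length of annotated models in the tables is the annotated one, not that of the reads. Intervals are 95% Poisson or Clopper-Pearson and leave out any error but that of counting, as PCR copies are not separate molecules. Reads of a gene and an antisense partner may not be told apart, and near-identical copies can share reads. Named genes were, in each complex, the 6 most abundant (all of complexes II and III and cytochrome c), catalytic cores, paralogues, the 5 largest ratios each way at 20 CPM or more, genes with several isoforms in use, genes read in 1 library only and the 5 lowest annotated shares; others were named after their values were seen. Members and lists were chosen with earlier results of these data known. 1 member named by this rule is not reported here by name.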

Additional observations from a re-analysis of the deposited data

How the results depend on the processing

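No paired analysis was possible because both libraries belong to 1 group. Of 82 members, 62 were higher in replicate 2 as reported, and 45 to 67 under the scaling, annotation, fragment and length alternatives. The 7 called lower fell to 1 with TMM factors, to 1 with DESeq2 size factors and to 0 where a change of 2-fold was also asked. The median log2 ratio of 1.56 was 1.82 with TMM factors, 1.81 with DESeq2 size factors and 0.30 after the ratio expected from length was subtracted. Among named members, Ndufv1 changed from -0.19 to 0.08 (TMM), 0.07 (DESeq2) and 0.04 (length), Ndufa10 from -0.19 to 0.07, 0.06 and 0.14, Sdha from -0.10 to 0.16, 0.15 and 0.27, and Cyc1 from -0.04 to 0.22, 0.21 and 0.20. With length subtracted, the sign also changed for Atp5f1 (0.03), Atp5g3 (-0.14), Ndufa4 (-0.54), Ndufs8 (-0.16), Uqcrc2 (0.24) and Uqcrb (-0.30). Values not called under either setting were given no direction. The cause was not tested. With annotated models only, complex II summed to 4382 and cytochrome c to 1142 CPM. Over all reads of the gene, the Atp5c1 share was 51.5%. Leaving out nested transcripts, an alternative chosen after seeing the data, left 2 of 4 isoform calls. For Cox4i1 and Atp5d it removes the isoform being compared, so their calls were not retested. With incomplete matches counted, the annotated share was 97.1%. Without replicate 1 or without replicate 2, 79 to 81 members reached 10 CPM, and summed levels and shares were those of the other library. Depth limits members under about 10 reads, and no test here measures animals.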
